A study of Patiria miniata with 18 samples.

Results

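The anterior fragment of a bisected bat star larva (Patiria miniata) was followed here between 3 h post-bisection (hpb) and 3 days post-bisection (dpb), in 4 of the 18 RNA-seq libraries of the time course: 2 replicates of anterior fragments at 3 dpb and 2 at 3 hpb, selected by their labels, in which the earlier time is called 0 dpb. Larvae were cut across the anterior-posterior axis at 7 days post-fertilization, so the anterior fragment kept the oral hood, mouth and part of the foregut and lost the midgut and the posterior end, and each library was made from a pool of sibling larvae. Posterior fragments of the same cuts (2 replicates at 3 dpb and 2 at 3 hpb) and uncut control larvae of the same ages (2 at 3 dpb and 2 at 3 hpb) were set beside them, since fragments at 3 dpb are also 3 days older than at 3 hpb. None of the groups carried a genetic change or received a drug. The question was how far the transcriptional wound response, present at 3 hpb, had ended inside the fragment by 3 dpb, and which genes had not returned to their level in uncut larvae.

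A cut through an epithelium is answered in many animals by a fast transcriptional program. Calcium entry and MAP kinase signalling switch on immediate early transcription factors such as Egr and Klf proteins, these factors switch on survival, cell cycle arrest, immune and stress genes, and phosphatases of the Dusp family shut the kinases off again. Later phases of regeneration in larvae of sea stars involve re-proportioning of the remaining tissue, in which axial patterning genes of the Wnt, Hox and anterior neuroectoderm groups are in play.

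For 6 of the genes described below the study's probe table gives a designed hybridization probe, and their target stretches are printed so that the transcripts meant here can be recognised. Klf2/4, Dusp10, Wee1_1 and Mcl stand for the early response, and the 2 Wnt receptors Frizz5/8 and Frizz9/10 for the anterior and the posterior end of the larva. Each target is 100 nt, printed 5′ to 3′ as the probe table gives it, and is written in lower case throughout because the whole stretch is the target. Positions are those of the locus on the version 1.0 scaffolds of the P. miniata genome.
Klf2/4, scaffold 17431, 8037 to 11747, minus strand: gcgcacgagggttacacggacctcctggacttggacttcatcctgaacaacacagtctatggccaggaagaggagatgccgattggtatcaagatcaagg
Dusp10, scaffold 3172, 52382 to 58546, plus strand: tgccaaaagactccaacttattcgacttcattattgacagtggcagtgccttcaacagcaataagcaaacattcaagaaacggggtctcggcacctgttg
Wee1_1, scaffold 2247, 56149 to 69541, plus strand: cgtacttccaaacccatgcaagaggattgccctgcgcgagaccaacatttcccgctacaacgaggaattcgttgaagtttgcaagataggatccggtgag
Mcl, scaffold 1188, 33857 to 39212, plus strand: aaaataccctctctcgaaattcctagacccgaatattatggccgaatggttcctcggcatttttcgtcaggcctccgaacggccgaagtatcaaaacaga
Frizz5/8, scaffold 4579, 35051 to 40020, minus strand: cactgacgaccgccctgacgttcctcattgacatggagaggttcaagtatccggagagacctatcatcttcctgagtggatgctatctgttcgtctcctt
Frizz9/10, scaffold 6583, 15898 to 23305, plus strand: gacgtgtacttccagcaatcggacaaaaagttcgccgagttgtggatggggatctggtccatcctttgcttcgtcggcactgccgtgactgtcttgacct

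Libraries held 15868104 to 36152675 reads assigned to loci, and the 4 anterior libraries 17431911 to 20601688. Of 80165 loci, 31798 passed the filter (above 3 on the counts-per-million scale, CPM, in at least 2 libraries), and 14559 of these carry a gene name. TMM scaling factors of the 4 anterior libraries ranged from 0.673 to 1.21, so levels are given as TMM-scaled CPM, replicate 1 before replicate 2. The study describes its replicates as biological, and whether they came from separate matings is not stated in the labels. The p-values measure the spread left between these samples after a difference between replicate numbers is taken out. Comparisons of 2 times within a group took out 1 difference shared by all times. Comparisons with uncut larvae or posterior fragments took out a difference at each time. Each group is a pool of whole fragments, and fewer cells of a type cannot be told apart from less RNA per cell. The dissection matched its label: the summed level of 7 posterior markers was 41.1 and 34.4 CPM in anterior fragments at 3 dpb and 69.0 and 58.4 CPM at 3 hpb, against 266 and 205 CPM in uncut larvae at 3 dpb and 249 and 202 CPM at 3 hpb. The sum of 7 anterior markers was 1550 and 1188 CPM in anterior fragments at 3 dpb and 879 and 1312 CPM at 3 hpb, against 561 and 431 CPM in uncut larvae at 3 dpb and 470 and 582 CPM at 3 hpb.

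Within the anterior fragment, early response genes such as Egr, Klf2/4, Dusp10 and Wee1_1 had lower values at 3 dpb than at 3 hpb in both replicates, and few single loci passed the test. By edgeR's quasi-likelihood test with Benjamini-Hochberg adjustment over all tested loci, 1 locus was higher (0.00314% of those tested) and 4 were lower (0.0126%) at 3 dpb than at 3 hpb at an adjusted p under 0.05. The loci that fell were Fam46c, 2 loci named Solh-2 and an unnamed one, and the locus that rose has no name. The unnamed locus that fell had 38.2 CPM in replicate 1 and 0 in replicate 2 at 3 hpb, so it was present in 1 library of the 4 above 0.05 CPM, and the one that rose had 6.14 and 2.34 CPM at 3 dpb, against 0.846 and 0.384 CPM at 3 hpb. At an unadjusted p under 0.05 with more than 2-fold between the times, 1471 loci were higher (4.63%) and 1731 were lower (5.44%), and 4905 loci had an unadjusted p under 0.05 whatever their change. Without replicate 1 at 3 dpb the 2 counts were 726 and 1000. Scaling by library size alone shifted the median change of all loci by 0.47 on the log2 scale, which put 88.1% instead of 45.9% of the loci past this second threshold on the higher side. Across all loci, 58.1% had a difference of the same sign in both replicates (r across loci = 0.224, where loci are not independent replicates).

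Fam46c, known in mammals as a poly(A) polymerase that lengthens mRNA tails in the cytoplasm, had 16.4 and 11.2 CPM in anterior fragments at 3 dpb, against 163 and 99.1 CPM at 3 hpb. Uncut larvae had 27.4 and 41.4 CPM at 3 dpb and 29.3 and 35.0 CPM at 3 hpb. The gene lies on scaffold 5154, 11225 to 26601, in 3 exons on the plus strand. Its change was -3.25 (log2, SE 0.34, edgeR adjusted p = 0.0108). It ended below the uncut level, by -1.29 with a 95% interval of -1.94 to -0.65 (adjusted p = 0.0276), and it lost that call when replicate 2 of either group was left out (-0.84 and -0.92, adjusted p = 0.507 and 0.41). Both anterior replicates at 3 hpb were above every library of the other 3 groups, and the 2 times did not overlap.

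Solh-2 is named after small optic lobes, a calpain-family protease first described in Drosophila. Its locus on scaffold 8415, 43063 to 53904, had 13.5 and 25.3 CPM in anterior fragments at 3 dpb, against 106 and 138 CPM at 3 hpb, a change of -2.72 (SE 0.29, edgeR adjusted p = 0.0108). At 3 dpb it stood 0.09 above uncut larvae on the log2 scale (95% interval -0.44 to 0.62), where it had 12.6 and 23.9 CPM. A second locus of that name, which may be another copy of the same gene, had 18.9 and 30.6 CPM at 3 dpb and 148 in both replicates at 3 hpb (change -2.61, adjusted p = 0.0188). The 3 named calls did not hold in the fit of the 4 anterior libraries alone, in which no locus passed, and leaving out 1 of the 4 libraries at a time left 0 higher and 0 to 3 lower.

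The immediate early list of transcription factors held 44 tested loci, none of them called over time by the adjusted test. At the unadjusted threshold 0 were higher and 9 were lower (20.5%), beside 4.63% and 5.44% of all loci. The median change was -0.68 (-0.89 in replicate 1 and -0.25 in replicate 2), beside -0.0025 over all loci. The study named several of these genes for an early rise in these same libraries, so the count is not independent evidence of a direction. Scaling by library size alone gave a median of -0.21, with the 0.47 shift of all loci in it. In uncut larvae over the same 3 days the list's median was 0.01.

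Egr, a zinc finger factor induced within minutes of many stimuli in vertebrates, had 20.4 and 68.7 CPM in anterior fragments at 3 dpb, against 1385 and 483 CPM at 3 hpb. Uncut larvae had 13.1 and 295 CPM at 3 dpb and 76.0 and 38.8 CPM at 3 hpb, so replicate 2 of the uncut larvae at 3 dpb was itself high. Its change was -4.98 with an SE of 1.54, and it did not pass the adjustment (unadjusted p = 0.00754, adjusted p = 0.171). Klf2/4, a Krüppel-like factor, had 73.8 and 120 CPM at 3 dpb, against 828 and 846 CPM at 3 hpb (change -3.21, SE 0.74, adjusted p = 0.108). It showed the same high replicate in uncut larvae at 3 dpb, 470 CPM beside 110 CPM.

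Other members differed between the replicates. Elk, an ETS-family factor that MAP kinases phosphorylate in mammals, had 36.2 and 187 CPM at 3 dpb, against 454 and 176 CPM at 3 hpb, so that only replicate 1 was lower. Nurr1, a nuclear receptor outside the list, had 41.9 and 42.5 CPM at 3 dpb, against 848 and 143 CPM at 3 hpb. The bZIP factor gene Nrl had 326 and 369 CPM at 3 dpb, against 2449 and 730 CPM at 3 hpb. Runt1, a runt-domain factor, had 75.5 and 85.2 CPM at 3 dpb, against 116 and 190 CPM at 3 hpb, and its level at 3 dpb was 1.20 above uncut larvae with an interval from -0.24 to 2.64. Erg and the main Ets1/2 locus, both ETS-family genes, changed less: Ets1/2 had 390 and 233 CPM at 3 dpb and 337 and 231 CPM at 3 hpb, and Erg 51.6 and 74.6 CPM at 3 dpb and 52.5 and 53.4 CPM at 3 hpb. In all 5 loci carry the name Ets1/2. Another of them was lower at 3 dpb by DESeq2 (change -1.57, adjusted p = 0.0114) and was not called by edgeR. FoxO, whose locus overlaps another tested locus, had 70.4 and 35.4 CPM at 3 dpb and 51.0 and 53.1 CPM at 3 hpb.

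**Figure D1:**
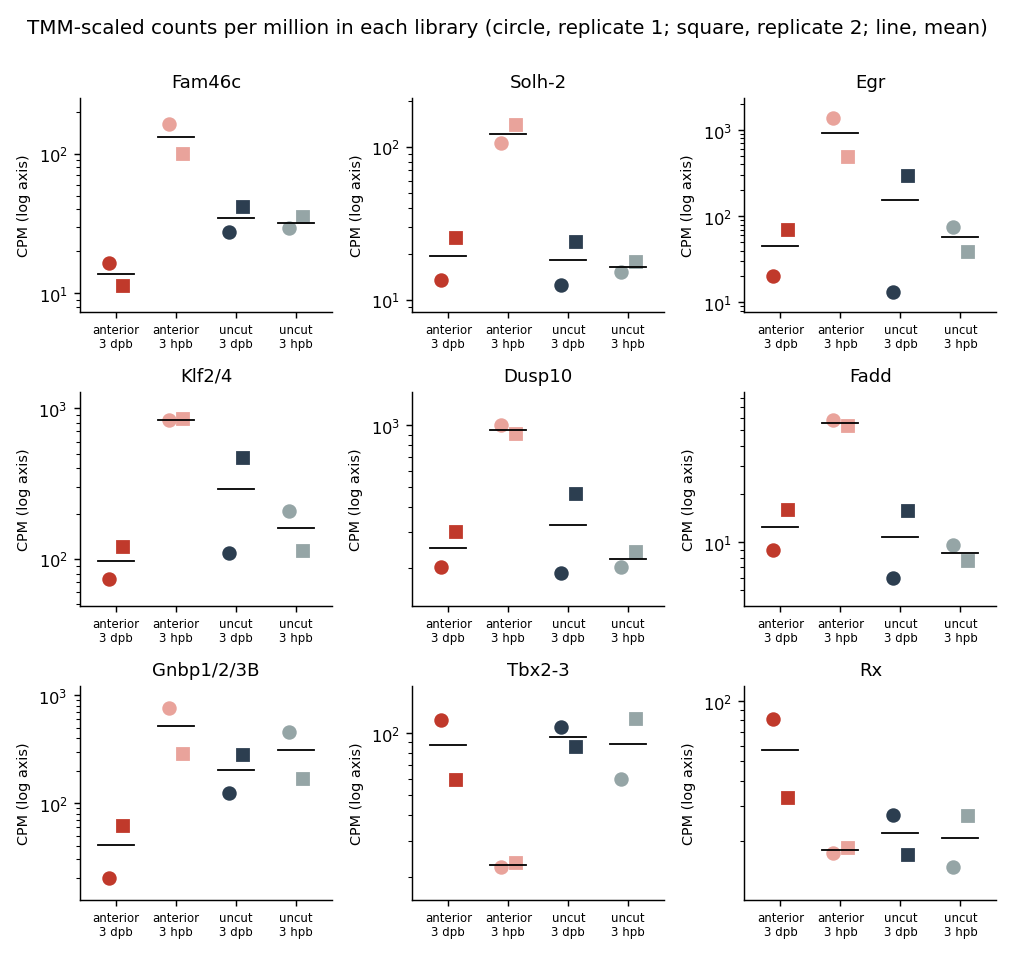
TMM-scaled CPM of 9 genes (log axis) in anterior fragments at 3 dpb and 3 hpb and in uncut larvae at 3 dpb and 3 hpb, with circles for replicate 1, squares for replicate 2 and a line at the mean of 2. Fam46c, Solh-2, Egr, Klf2/4, Dusp10, Fadd and Gnbp1/2/3B lie lower at 3 dpb than at 3 hpb in both anterior replicates, Tbx2-3 and Rx lie higher, and Egr and Klf2/4 have a high second replicate in uncut larvae at 3 dpb.

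The MAP kinase cascade list held 65 loci. Over time 2 were higher (3.08%) and 9 lower (13.8%) at the unadjusted threshold, beside 4.63% and 5.44% of all loci. The median change was -0.14 and turned to 0.34 under scaling by library size alone. Dusp10, a phosphatase that inactivates the stress kinases p38 and JNK, had 203 and 301 CPM in anterior fragments at 3 dpb, against 1001 and 903 CPM at 3 hpb (change -1.98, SE 0.36, edgeR adjusted p = 0.0701). Mkk3/6, the kinase that activates p38, had 17.2 and 26.9 CPM at 3 dpb, against 51.4 and 132 CPM at 3 hpb (change -1.98, adjusted p = 0.0801). Jnk itself had 27.2 and 34.1 CPM at 3 dpb, against 59.6 and 68.9 CPM at 3 hpb (change -1.07, adjusted p = 0.13). The values of all 3 genes were lower at 3 dpb in both replicates, and all 3 were within 0.3 of uncut larvae on the log2 scale at 3 dpb: -0.25 for Dusp10, 0.04 for Mkk3/6 and 0.28 for Jnk.

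Growth arrest genes that the study named had the lowest median change of the 31 lists, -1.86 over 18 loci (-1.66 in replicate 1 and -1.21 in replicate 2, and -1.41 under scaling by library size). At the unadjusted threshold 13 of the 18 were lower (72.2%, beside 5.44% of all loci) and 0 were higher. The study picked these genes on these libraries, and several loci share the name Plk2 or Wee1_1, so the count is not independent evidence of a direction. Wee1_1, a kinase that holds cells before mitosis, had 2.46 and 0.572 CPM at 3 dpb, against 43.0 and 6.45 CPM at 3 hpb (change -3.88, adjusted p = 0.108). Plk2, a polo-like kinase induced by stress in mammals, had 3.24 and 7.13 CPM at 3 dpb, against 15.0 and 68.9 CPM at 3 hpb (change -2.87, adjusted p = 0.0767). The replicates disagreed on the size of both peaks, Wee1_1 being higher in replicate 1 and Plk2 in replicate 2. Rbbp6L, related to an Rb-binding ubiquitin ligase, had 49.8 and 52.1 CPM at 3 dpb, against 141 and 86.5 CPM at 3 hpb.

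Among 41 loci of apoptosis genes, 1 was higher (2.44%) and 4 were lower (9.76%) over time at the unadjusted threshold, beside 4.63% and 5.44% of all loci. Fadd, the adaptor of death receptors, had 8.99 and 15.9 CPM at 3 dpb, against 58.0 and 53.6 CPM at 3 hpb (change -2.19, adjusted p = 0.108), and a second Fadd locus had 14.7 and 14.6 CPM at 3 dpb against 154 and 40.2 CPM at 3 hpb. The survival gene Mcl, of the Bcl-2 family, had 266 and 659 CPM at 3 dpb, against 1704 and 999.6 CPM at 3 hpb (change -1.73, adjusted p = 0.195). Values of Fadd and Mcl were lower at 3 dpb than at 3 hpb in both replicates, and neither gene passed the adjustment.

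The innate immune list held 197 loci, with a median of -0.13. Over time 5 were higher (2.54%) and 16 lower (8.12%) at the unadjusted threshold, beside 4.63% and 5.44% of all loci. The adaptor of Toll-like receptors, Myd88, had 140 and 444 CPM at 3 dpb, against 947 and 832 CPM at 3 hpb. A scavenger receptor locus named Srcr28 had 42.0 and 177 CPM at 3 dpb, against 224 and 706 CPM at 3 hpb (change -2.18, adjusted p = 0.0701). Gnbp1/2/3B, related to the glucan-binding pattern recognition proteins of arthropods, took another course. It had 20.3 and 60.9 CPM in anterior fragments at 3 dpb, against 762 and 289 CPM at 3 hpb (change -3.99, SE 0.87, adjusted p = 0.0972), while uncut larvae had 123 and 279 CPM at 3 dpb and 462 and 166 CPM at 3 hpb. It was not called against uncut larvae at 3 hpb and was lower at 3 dpb by -2.41 (95% interval -3.24 to -1.58, adjusted p = 0.00216). A second locus, Gnbp1/2/3B_1, had 5.70 and 16.0 CPM at 3 dpb against 148 and 84.0 CPM at 3 hpb, and was lower than in uncut larvae at 3 dpb by -2.54 (adjusted p = 0.00119). The first of these calls missed the threshold without replicate 1 of either group (adjusted p = 0.0547 and 0.0541). Both were lost with 1 replicate block for all times (adjusted p = 0.335 and 0.0685) and with no block (0.726 and 0.277). In posterior fragments Gnbp1/2/3B had 96.3 and 396 CPM at 3 dpb and 564 and 579 CPM at 3 hpb.

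Genes of motile cilia differed less between the times. FoxJ1, the transcription factor that switches on motile cilium genes in vertebrates, had 116 and 201 CPM at 3 dpb, against 258 and 343 CPM at 3 hpb (change -0.97, SE 0.29, adjusted p = 0.162). Of 44 axoneme loci outside the dyneins, 3 were lower (6.82%, beside 5.44% of all loci) and 0 higher at the unadjusted threshold. In both replicates 34 were lower, and their median was -0.40, or 0.06 under scaling by library size. Rib43A, a protein of the ciliary doublets, had 44.2 and 138 CPM at 3 dpb, against 229 and 176 CPM at 3 hpb. Axonemal dyneins had a median of -0.05 over 62 loci (0.42 under scaling by library size, 1 lower at the unadjusted threshold), that 1 being Dnahc8, with 65.1 and 34.5 CPM at 3 dpb, against 139 and 86.2 CPM at 3 hpb. The 9 muscle genes had a median of -0.46 (0.02 under scaling by library size), with 3 lower (33.3%) and 1 higher (11.1%) at the unadjusted threshold. Against uncut larvae their median was 0.29 at 3 dpb and 1.09 at 3 hpb, with 0 and 5 loci higher. Mylk3, a myosin light chain kinase, had 367 and 931 CPM at 3 dpb, against 1182 and 1355 CPM at 3 hpb. The calcium and TRP channel list held 72 loci, of which 2 were higher (2.78%) and 3 lower (4.17%), both shares below the 4.63% and 5.44% of all loci. Among the lower ones was Trpc7, with 3.96 and 3.59 CPM at 3 dpb against 19.99 and 7.45 CPM at 3 hpb.

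**Figure D2:**
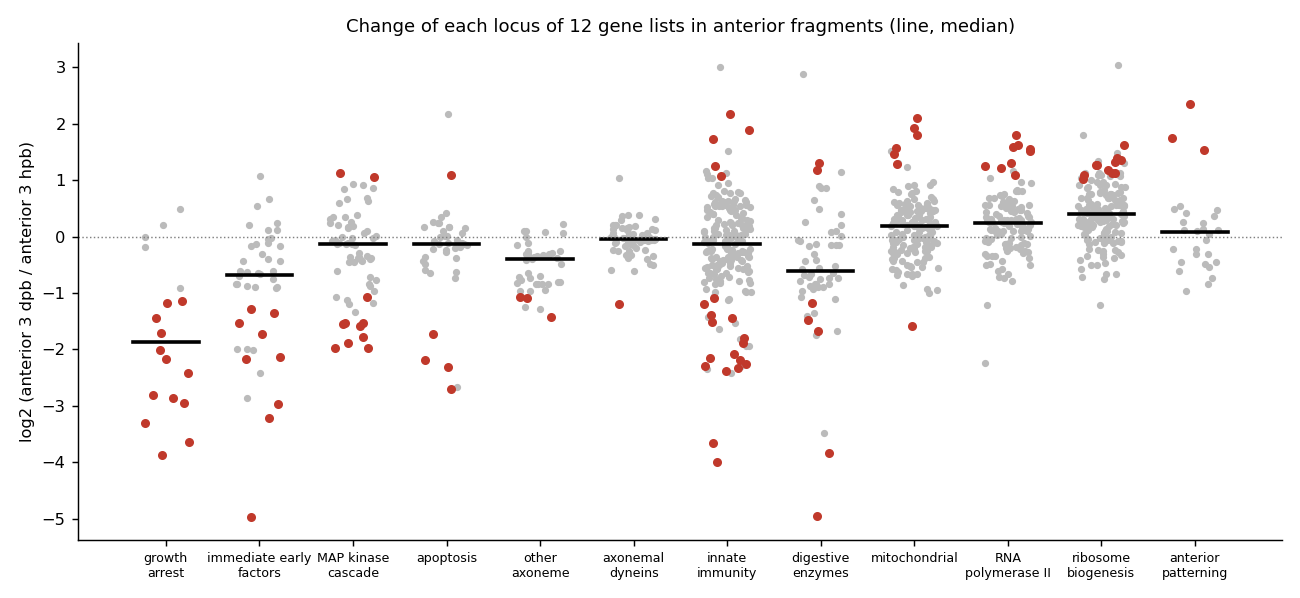
Log2 change of each locus between 3 dpb and 3 hpb in anterior fragments (positive is higher at 3 dpb) for 12 gene lists, with a line at each median and red points for loci with more than 2-fold at an unadjusted p under 0.05. Growth arrest loci lie lowest (median -1.86), immediate early factors next (-0.68), and ribosome biogenesis loci highest among the medians (0.41).

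Of the 31 lists, ribosome biogenesis genes had the highest median change. Ribosome biogenesis, the assembly of ribosomal subunits in the nucleolus, held 156 loci with a median of 0.41 in the fit and of 0.41 and 0.40 in replicates 1 and 2. At the unadjusted threshold 11 were higher (7.05%, beside 4.63% of all loci) and 0 were lower (beside 5.44% of all loci), and 90 were higher and 13 lower in both replicates. Utp18, a subunit of the small subunit processome, had 7.05 and 6.71 CPM at 3 dpb, against 2.87 and 3.15 CPM at 3 hpb (change 1.19, SE 0.33, adjusted p = 0.139). The RNA helicase gene Ddx27 had 4.88 and 3.90 CPM at 3 dpb, against 1.56 and 1.92 CPM at 3 hpb. Both groups were separate for each gene, and neither passed the adjustment.

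RNA polymerase II, mediator and integrator genes held 123 loci, of which 9 were higher (7.32%) and 0 lower (median 0.25), beside 4.63% and 5.44% of all loci. Splicing and exosome genes held 166 loci, of which 10 were higher (6.02%, not far above the 4.63% of all loci) and 1 lower (0.602%, median 0.15). Mitochondrial ribosome and respiratory chain genes held 162 loci, of which 6 were higher (3.70%, below the share of all loci) and 1 lower (median 0.19). Translation factors and tRNA synthetases had 2 higher (1.96%) and 1 lower (0.98%) of 102 loci (median -0.08, 0.40 under scaling by library size). Cytosolic ribosomal proteins had a median of -0.38 (0.10 under scaling by library size). The splicing factor gene Prpf18 had 4.74 and 6.09 CPM at 3 dpb, against 1.76 and 2.38 CPM at 3 hpb, and the general factor subunit Gtf2F1 10.1 and 5.78 CPM at 3 dpb, against 3.19 and 3.53 CPM at 3 hpb. Mrpl22 of the mitochondrial ribosome had 18.2 and 13.9 CPM at 3 dpb, against 7.49 and 4.30 CPM at 3 hpb. Of the cell division genes, MCM and DNA replication genes had 2 higher (2.70%) and 1 lower (1.35%) of 74 (median 0.17). Mitosis genes had 5 higher (4.42%) and 1 lower (0.885%) of 113 (median -0.15, 0.32 under scaling by library size). The shares of both cell division lists were below the 4.63% and 5.44% of all loci. Mcm2_1, a subunit of the replicative helicase, had 13.2 and 1.15 CPM at 3 dpb, against 17.8 and 0.461 CPM at 3 hpb, so the replicates differed far more than the times.

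Tbx2-3, a T-box factor, had 116 and 59.0 CPM at 3 dpb, against 22.5 and 23.4 CPM at 3 hpb (change 1.87, SE 0.53, adjusted p = 0.143). Uncut larvae had 106 and 85.9 CPM at 3 dpb and 59.5 and 117 CPM at 3 hpb, so the 3 hpb fragments were the low group. Atg16L1, needed for the growth of autophagosomes, had 9.91 and 7.96 CPM at 3 dpb, against 2.34 and 3.92 CPM at 3 hpb, while Gabarap, of the same pathway, had 262 and 604 CPM at 3 dpb, against 1195 and 1055 CPM at 3 hpb.

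The anterior patterning list of 28 loci had a median change over time of 0.07 (0.17 in replicate 1 and -0.28 in replicate 2). At the unadjusted threshold 3 of its loci were higher (10.7%) and 0 were lower, while 8 were higher and 8 lower in both replicates. The homeobox genes Rx and Hbn, which mark anterior neuroectoderm in many animals, had higher values at 3 dpb in both replicates. Neither passed the adjustment over time. Rx had 81.6 and 33.0 CPM at 3 dpb, against 17.5 and 18.6 CPM at 3 hpb (change 1.53, adjusted p = 0.175). Hbn had 8.75 and 4.06 CPM at 3 dpb, against 1.04 and 1.46 CPM at 3 hpb (change 2.36, adjusted p = 0.13). Unlike Tbx2-3, Rx was above its level in uncut larvae, which had 27.0 and 17.2 CPM at 3 dpb, by 1.28 (95% interval 0.73 to 1.83, adjusted p = 0.0104), a call lost without replicate 1 of the fragments (0.97, adjusted p = 0.268) or either replicate of the uncut larvae (adjusted p = 0.274 and 0.0586). Of 58 loci of BMP, TGF-beta, FGF and Notch genes, 5 were higher (8.62%) and 3 lower (5.17%) over time, beside 4.63% and 5.44% of all loci. Bmp3b, a BMP-family ligand, had 5.32 and 1.20 CPM at 3 dpb against 0.391 and 0.307 CPM at 3 hpb and exceeded uncut larvae at 3 dpb by 2.62 (adjusted p = 0.0206), a call kept only when replicate 2 of the uncut larvae was left out (lowest estimate 1.30, without replicate 1 of the uncut larvae). Tsg, an extracellular BMP modulator, had 42.6 and 17.7 CPM at 3 dpb, against 9.51 and 10.6 CPM at 3 hpb.

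Set against the same 3 days in uncut larvae, the change in anterior fragments differed at 60 loci (0.189% of those tested), of which 29 carry a name. It was more negative at 53 (0.167%) and more positive at 7 (0.022%). In uncut larvae alone no locus passed the test by edgeR (0%), and 799 had an unadjusted p under 0.05. Among the named loci with a more negative change were Fam46c (difference of changes -3.30, adjusted p = 0.0242), both Solh-2 loci (-2.79 and -2.95), Dusp10 (-2.36, adjusted p = 0.0319), Fadd (-2.41, adjusted p = 0.039), Nrl (-2.07, adjusted p = 0.0394), Gnbp1/2/3B (-3.16) and Gnbp1/2/3B_1 (-3.10). Among those with a more positive change were Pla2g4b, a phospholipase A2 (2.32, SE 0.37, adjusted p = 0.0417), and Rwdd2b (3.58, SE 0.53). With 1 replicate block for all times, as used for the change over time, no locus passed and these named loci had adjusted p-values between 0.174 and 0.761. The calls also depended on the libraries: leaving out replicate 1 of the uncut larvae at 3 hpb gave 707 loci more positive and 1464 more negative, and leaving out replicate 1 of the uncut larvae at 3 dpb gave 12 more negative and 0 more positive. Leaving out any other of the 8 libraries gave 0.

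Against the posterior fragments no locus changed differently at an adjusted p under 0.05 by edgeR (0%), while 960 loci had an unadjusted p under 0.05 and DESeq2 called 6 more positive and 5 more negative. In posterior fragments Fam46c had 19.6 and 22.6 CPM at 3 dpb, against 124 in both replicates at 3 hpb. Dusp10 had 183 and 398 CPM at 3 dpb, against 859 and 870 CPM at 3 hpb. The growth arrest list had a median change of -1.17 in posterior fragments and of -1.86 in anterior ones, the immediate early list -0.37 and -0.68, and ribosome biogenesis genes 0.52 and 0.41. A difference between the fragments in these lists was not tested.

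The state reached at 3 dpb was measured against uncut larvae of the same age, in libraries separate from those that define the difference at 3 hpb. A fragment lacks the rest of the larva, so a difference from whole larvae holds tissue composition as well as any response to the cut. These cannot be told apart in the counts below. At 3 hpb, 3962 loci (12.5%) were higher and 4598 (14.5%) were lower in anterior fragments than in uncut larvae, and scaling by library size alone put 16.0% instead of 46.3% of the called loci on the higher side. At 3 dpb, 102 (0.321%) were higher and 1149 (3.61%) were lower. The counts moved with single libraries: at 3 hpb they were 2401 and 3055 without replicate 1 of the fragments, 1913 and 2423 without replicate 2, and 2319 and 2657 without replicate 2 of the uncut larvae, and at 3 dpb 11 to 33 loci were higher and 689 to 833 lower with any 1 library left out, the fewest lower without replicate 1 of the fragments. Of the 3962 loci higher at 3 hpb, 63 (1.59%) were still higher at 3 dpb, 2 were lower and 3897 (98.4%) were not called. Their median was 0.27 at 3 dpb (quartiles 0.06 and 0.48), against 1.21 at 3 hpb, and 3232 of them (81.6%) still had a positive value at 3 dpb, where the median of all loci was 0.02. The 95% interval lay within 2-fold of uncut larvae for 2331 (58.8%), beside 58.3% of all loci, and the intervals of the others reached beyond 2-fold.

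Loci lower at 3 hpb behaved otherwise. Of the 4598, 1064 (23.1%) were still lower at 3 dpb, 0 were higher, and 3534 (76.9%) were not called. Their median was -0.29 at 3 dpb, against -1.34 at 3 hpb, and the lower quartile at 3 dpb was -1.28. Almost all that was low at 3 dpb had been low at 3 hpb already: 1064 of the 1149 (92.6%), with 83 not called at 3 hpb. Of the 102 loci higher at 3 dpb, 63 (61.8%) had been higher at 3 hpb. Both counts depend on the fit: with 1 replicate block for all times 3 loci were higher at both times and 649 lower at both, and with no block 0 and 399. Among the genes named here as called at 3 dpb, Fam46c, Rx, Bmp3b, Eve, FoxD, six3, Anktm1, Kcnh1 and the higher Srcr28 locus were not called with 1 replicate block for all times (adjusted p between 0.0511 and 0.486).

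**Figure D3:**
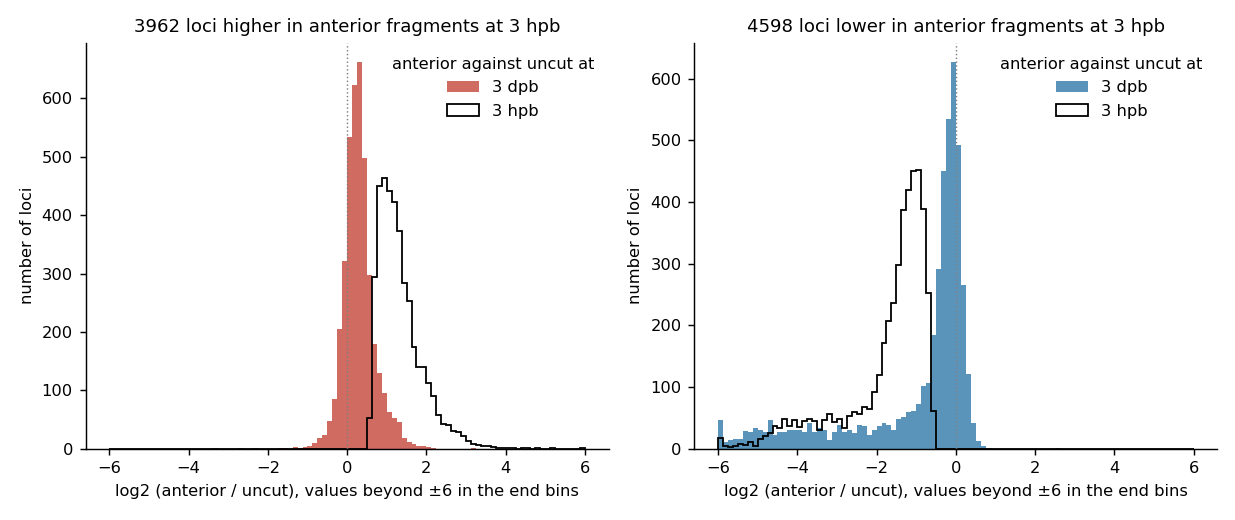
Number of loci by log2 ratio of anterior fragments to uncut larvae, at 3 dpb (filled) and 3 hpb (outline), for the 3962 loci higher (left) and the 4598 lower (right) at 3 hpb, with values beyond 6 in the end bins. Loci higher at 3 hpb gather just above 0 at 3 dpb (median 0.27), while loci lower at 3 hpb split into a peak near 0 and a long tail below -1.28, the lower quartile.

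By gene list, calls at 3 hpb were frequent among the response genes, beside 12.5% of all loci higher at that time, while at 3 dpb so few loci were higher at all (0.321%) that a count of 0 in a list is near the background. Of 44 immediate early loci 19 were higher and 2 lower at 3 hpb, and 0 were higher and 2 lower at 3 dpb (medians 0.08 at 3 dpb and 0.85 at 3 hpb). Of 18 growth arrest loci, 14 were higher at 3 hpb and 0 at 3 dpb (medians 0.07 and 1.88), and of 65 MAP kinase loci 20 at 3 hpb and 0 at 3 dpb (0.07 and 0.35). The study named the growth arrest genes, and several of the immediate early and MAP kinase genes, for their early rise in these same libraries. The counts at 3 hpb are therefore not independent evidence of a response. Klf2/4 ended at -1.24 against uncut larvae (interval -2.50 to 0.02), Mcl at 0.11 (-0.39 to 0.60), Egr at -0.58 (-1.99 to 0.83), and Wee1_1 at -0.63 (-1.80 to 0.53). The wide interval of Egr includes levels below, at and above that of uncut larvae. That of Klf2/4 reaches from a level well below uncut larvae to just above it.

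Cilium genes kept a positive median. Axonemal dyneins stood at 0.39 at 3 dpb and 0.75 at 3 hpb, with 27 of 62 loci higher at 3 hpb and 0 at 3 dpb, and the other axoneme genes at 0.39 and 0.71, with 21 of 44 higher at 3 hpb and 0 at 3 dpb. Medians of the ribosome biogenesis, mitochondrial and splicing lists were below uncut larvae at 3 hpb. Ribosome biogenesis loci had a median of -0.02 at 3 dpb and -0.74 at 3 hpb, with 0 lower at 3 dpb and 58 at 3 hpb. Mitochondrial genes, 162 loci, had medians of 0.00 and -0.50, with 0 lower at 3 dpb and 56 at 3 hpb. Splicing genes, 166 loci, had 0.05 and -0.32, with 1 and 35. Of all loci, 3.61% were lower at 3 dpb and 14.5% at 3 hpb, and 0.321% and 12.5% were higher. Uncut larvae also moved over the 3 days, with medians of -0.30 for ribosome biogenesis, -0.35 for mitochondrial and -0.12 for splicing genes. In anterior fragments these medians were 0.41, 0.19 and 0.15. Axonemal dyneins had 0.35 in uncut larvae and -0.05 in fragments. The summed level of ribosome biogenesis loci at 3 hpb was 1367 and 1551 CPM in fragments and 2040 and 1305 CPM in uncut larvae. The mitochondrial list had 6399 and 5694 CPM in fragments, against 8415 and 5361 CPM. The splicing list had 3899 and 3540 CPM, against 4280 and 3347 CPM. By these sums only replicate 1 of the fragments was lower. Tbx2-3 stood at -0.19 at 3 dpb (-0.84 to 0.45) and at -1.86 at 3 hpb.

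**Figure D4:**
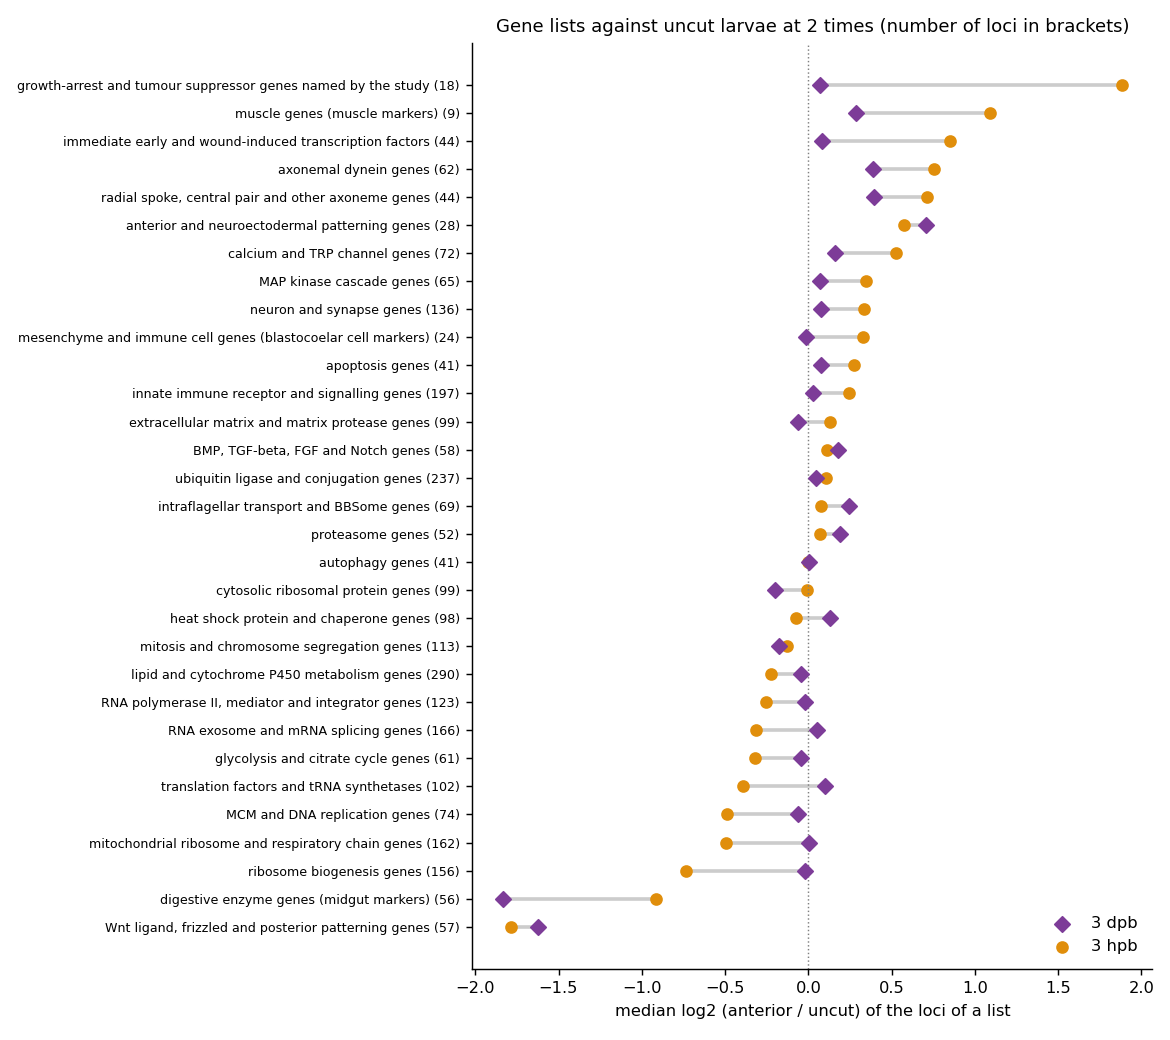
Median log2 ratio of anterior fragments to uncut larvae for each of 31 gene lists (number of loci in brackets), at 3 dpb (diamonds) and 3 hpb (circles). Most lists lie near 0 at 3 dpb, while digestive enzyme genes (-1.83) and Wnt and posterior patterning genes (-1.62) stay low and anterior patterning genes (0.71) stay high.

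Posterior genes stayed low. Of 57 loci of Wnt, frizzled and posterior patterning genes, 37 were lower at 3 hpb and 28 at 3 dpb, and all 28 were lower at both times (medians -1.62 at 3 dpb and -1.78 at 3 hpb). Of all loci, 14.5% were lower at 3 hpb and 3.61% at 3 dpb. The cut removed the posterior part, so missing tissue and lower expression in the tissue that was left cannot be told apart. Hox11/13b, a Hox gene of the posterior group, had 0.822 and 1.25 CPM in anterior fragments at 3 dpb and 0.391 and 0.614 CPM at 3 hpb, against 16.1 and 18.3 CPM in uncut larvae at 3 dpb (-4.06, adjusted p = 0.00982). Eve, a homeobox gene of posterior ectoderm, had 0.290 and 1.51 CPM at 3 dpb and 0.456 and 2.07 CPM at 3 hpb, against 22.6 and 19.5 CPM in uncut larvae at 3 dpb (-4.63, adjusted p = 0.00458). Eve was not called without replicate 1 of the fragments (adjusted p = 0.106), and Hox11/13b when any 1 of the 4 libraries was left out (highest adjusted p = 0.166).

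The Wnt receptor gene Frizz9/10 at the probe locus printed above had 6.14 and 4.63 CPM at 3 dpb and 10.6 and 8.83 CPM at 3 hpb in anterior fragments, against 117 and 78.8 CPM in uncut larvae at 3 dpb (-4.17, interval -5.19 to -3.16, adjusted p = 0.000149). Posterior fragments had 237 and 133 CPM at 3 dpb and 302 and 245 CPM at 3 hpb, so both posterior replicates were far above both anterior ones at each time. A second locus of that name had 102 and 56.8 CPM in anterior fragments at 3 dpb and was not called (-1.13, adjusted p = 0.0656). Wnt16, a Wnt ligand, had 0.483 and 0.416 CPM at 3 dpb in anterior fragments, against 5.49 and 7.20 CPM in uncut larvae (-3.78, adjusted p = 0.00907), a call lost when any 1 of the 4 libraries was left out. GataC, a zinc finger factor also taken here as a marker of blastocoelar mesenchyme, had 14.5 and 16.0 CPM at 3 dpb, against 66.5 and 67.4 CPM in uncut larvae (-2.13, adjusted p = 0.000612). The homeobox genes Hox5 (-5.91) and Lox (-4.96) were lower as well. Of the 4 mesenchyme markers only GataC was lower at 3 dpb. Their sum was 460 and 331 CPM in anterior fragments, against 432 and 347 CPM in uncut larvae. The list of 24 mesenchyme and immune cell loci had a median of -0.01 at 3 dpb, with 1 lower and 0 higher.

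A locus named Nk1 was lower than in uncut larvae at 3 dpb (-2.99, adjusted p = 0.000435), with 8.65 and 4.89 CPM against 59.0 and 45.8 CPM. Other loci with that name went the other way at 3 hpb, the highest of them with 3.29 and 0.520 CPM at 3 dpb and 9.12 and 8.14 CPM at 3 hpb in anterior fragments. Wnt8 was not called against uncut larvae at either time: it had 12.1 and 13.6 CPM at 3 dpb and 27.6 and 19.2 CPM at 3 hpb in anterior fragments, against 12.02 and 15.6 CPM in uncut larvae at 3 dpb and 18.2 and 11.2 CPM at 3 hpb.

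At 6 dpb some of these posterior genes differed between the replicates. Hox11/13b had 5.80 and 0.410 CPM in anterior fragments at 6 dpb, Eve 6.71 and 0.307 CPM, and Frizz9/10 16.2 and 2.15 CPM, in each case higher in replicate 1 than at 3 dpb and lower in replicate 2. No call was made for them between 6 dpb and 3 dpb (adjusted p = 0.894, 0.947 and 1.00).

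Digestive enzymes of the midgut were low as well. Of 56 loci, 27 were lower at 3 hpb and 25 at 3 dpb, 23 of them at both, beside 14.5% and 3.61% of all loci at the 2 times. The median was -1.83 at 3 dpb and -0.92 at 3 hpb. Over time within the fragment the list's median change was -0.61 (-0.15 under scaling by library size). Cpa2L, a carboxypeptidase, had 1.40 and 5.36 CPM in anterior fragments at 3 dpb and 2.73 and 6.60 CPM at 3 hpb, against 119 and 168 CPM in uncut larvae at 3 dpb (-5.59, interval -6.33 to -4.85, adjusted p = 9.51e-06). Mgam_3, a maltase-glucoamylase of the brush border, had 1.64 and 3.64 CPM at 3 dpb and 6.90 and 7.52 CPM at 3 hpb, against 60.9 and 66.7 CPM in uncut larvae at 3 dpb (-4.64, adjusted p = 1e-05). Anpep_1, an aminopeptidase, had 1.50 and 1.98 CPM at 3 dpb, against 57.9 and 42.2 CPM in uncut larvae (-4.81). At 6 dpb Cpa2L was at 0.176 and 0.410 CPM in anterior fragments, a further fall of 3.39 from 3 dpb (adjusted p = 0.00503), and Mgam_3 was at 2.43 and 3.69 CPM.

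Trypsin-like TrypsinL_2 was an exception in the list. It had 24.7 and 117 CPM in anterior fragments at 3 dpb, against 1696 and 380 CPM at 3 hpb, and uncut larvae had 12.5 and 144 CPM at 3 dpb and 810 and 22.4 CPM at 3 hpb. It was high in replicate 1 of both groups at 3 hpb, and its change over time in the fragment (-4.95, SE 2.11, adjusted p = 0.294) was not distinguishable from that in uncut larvae (difference -1.81, adjusted p = 0.413).

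Part of the immune and detoxification genes stayed low too. Of 290 lipid and cytochrome P450 loci, 29 were lower at 3 dpb and 68 at 3 hpb, with 27 lower at both, and 0 were higher at 3 dpb and 27 at 3 hpb. Of 197 innate immune loci 23 were lower at 3 dpb and 30 at 3 hpb, with 20 at both, and 1 was higher at 3 dpb and 33 at 3 hpb. The shares of all loci that were lower were 3.61% at 3 dpb and 14.5% at 3 hpb, and the immune count at 3 hpb is close to the second. Cyp2L58 had 0.628 and 1.09 CPM at 3 dpb in anterior fragments, against 28.8 and 19.9 CPM in uncut larvae (-4.80). Pgrp3, of the peptidoglycan recognition family, had 0.338 and 0.624 CPM, against 10.9 and 25.1 CPM in uncut larvae (-5.19), and the scavenger receptor gene Srcr127 0.822 and 1.35 CPM, against 24.5 and 24.9 CPM (-4.50). A locus of Srcr28 other than the one described above had 1.35 and 1.51 CPM, against 31.9 and 32.7 CPM (-4.49). Of 136 neuron and synapse loci 21 were lower and 1 higher at 3 dpb, and 25 were lower and 30 higher at 3 hpb. The list's median was above uncut larvae at both times (0.07 at 3 dpb and 0.34 at 3 hpb). The sum of 4 neuron markers was 404 CPM in both anterior replicates at 3 dpb, against 306 and 369 CPM in uncut larvae. Among the lower loci was AcheL_2, related to acetylcholinesterase, with 1.64 and 1.20 CPM against 54.6 and 21.9 CPM in uncut larvae (-4.65).

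**Figure D5:**
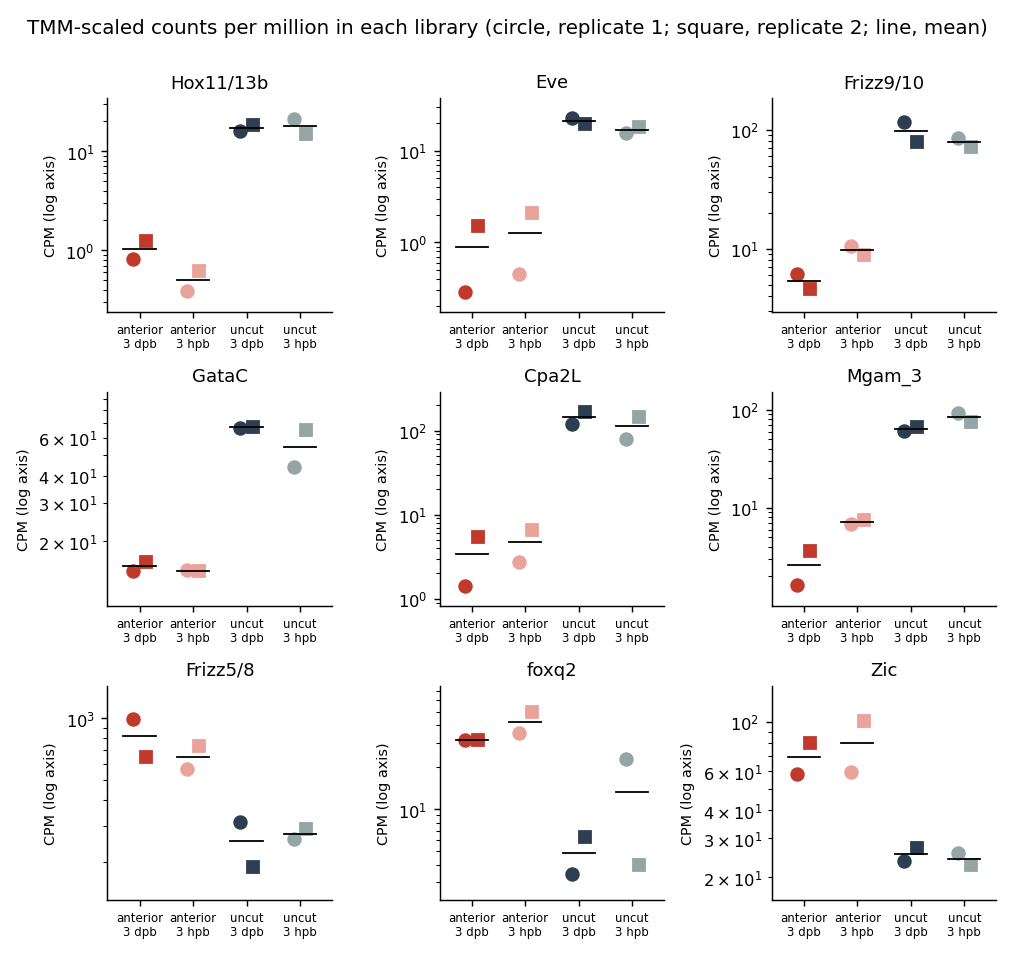
TMM-scaled CPM of 9 genes (log axis) in anterior fragments at 3 dpb and 3 hpb and in uncut larvae at 3 dpb and 3 hpb, with circles for replicate 1, squares for replicate 2 and a line at the mean of 2. Hox11/13b, Eve, Frizz9/10, GataC, Cpa2L and Mgam_3 lie below both uncut groups at both times, and Frizz5/8, foxq2 and Zic lie above them.

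Anterior patterning genes were the converse. Of 28 loci, 10 were higher and 1 lower at 3 hpb, and 4 were higher and 0 lower at 3 dpb, 2 of the 4 at both times (medians 0.71 at 3 dpb and 0.58 at 3 hpb). Of all loci, 12.5% were higher at 3 hpb and 0.321% at 3 dpb. Frizz5/8, the anterior Wnt receptor, had 990 and 646 CPM in anterior fragments at 3 dpb and 566 and 738 CPM at 3 hpb, against 314 and 191 CPM in uncut larvae at 3 dpb and 260 and 291 CPM at 3 hpb (1.71 at 3 dpb, interval 1.27 to 2.15, adjusted p = 0.000232). Posterior fragments had 70.2 and 44.3 CPM at 3 dpb and 23.3 and 26.0 CPM at 3 hpb. FoxD, a forkhead factor, was the other gene higher at both times, with 157 and 122 CPM at 3 dpb and 195 and 152 CPM at 3 hpb, against 76.6 and 71.5 CPM in uncut larvae at 3 dpb (0.91, adjusted p = 0.0138, not called when any 1 of the 4 libraries was left out). The homeobox gene six3 was called at 3 dpb together with Rx (1.06, adjusted p = 0.0452), with 133 and 225 CPM against 75.9 and 91.6 CPM in uncut larvae, and this call too was lost when any 1 of the 4 libraries was left out.

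The forkhead gene foxq2 and the zinc finger gene Zic had like levels without passing the test at 3 dpb. The first had 31.5 and 31.3 CPM in anterior fragments at 3 dpb and 34.8 and 49.8 CPM at 3 hpb, against 3.42 and 6.32 CPM in uncut larvae at 3 dpb (2.71, interval 1.09 to 4.32, adjusted p = 0.0772). Zic had 58.3 and 79.8 CPM at 3 dpb, against 23.7 and 27.0 CPM in uncut larvae (1.45, interval 0.57 to 2.33, adjusted p = 0.0827). GliA, the transcription factor of Hedgehog signalling, had 95.4 and 47.8 CPM at 3 dpb and 53.1 and 84.7 CPM at 3 hpb, so its direction over time differed between the replicates.

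Outside the patterning lists, few of the loci named here were higher than in uncut larvae at 3 dpb. For these too, tissue composition and a response to the cut cannot be told apart. The TRP channel gene Anktm1 had 14.2 and 19.2 CPM at 3 dpb and 17.2 and 12.4 CPM at 3 hpb in anterior fragments, against 7.31 and 10.8 CPM in uncut larvae at 3 dpb (0.89, adjusted p = 0.0407). Kcnh1, a voltage-gated potassium channel, had 24.4 and 22.9 CPM at 3 dpb and 26.9 and 43.2 CPM at 3 hpb, against 13.3 and 13.7 CPM in uncut larvae at 3 dpb (0.81, adjusted p = 0.0338). Another Srcr28 locus had 25.9 and 21.4 CPM at 3 dpb, against 12.7 and 7.93 CPM in uncut larvae (1.22, adjusted p = 0.0371). All 3 calls were lost when any 1 of the 4 libraries was left out, with estimates between 0.75 and 1.44.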

How the data were processed

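Poly(A) RNA-seq libraries of pooled larvae were sequenced, and the authors' deposited files hold whole-number read counts per locus, made with CASAVA 1.8, TopHat2 2.0.12, Cufflinks 2.2.1 and HTSeq 0.6.1p1 per the labels (submitters' processing notes, which also name edgeR 3.10.5). The deposited annotation places loci on scaffolds of the P. miniata version 1.0 genome. Whether the counting used strand is not given in the sources used here, so the 10.7% of tested loci that overlap another are uncertain, as are the 11244 tested loci that share a name with another locus. Reads on no locus made up 2.37 to 3.65% and ambiguous reads 6.12 to 8.74% of each library, and both stayed out of library sizes. Another table of the authors holds 6 fold change columns of their own, which were not used. Probe targets came from the study's supplementary probe table, of which only the sequences were read.

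Loci above 3 CPM in 2 or more of the 18 libraries were tested with edgeR 4.0.16 (quasi-likelihood, TMM) in R 4.3.3, with limma 3.58.1. The time comparison used 9 group terms and 1 replicate block. The comparisons with uncut larvae and posterior fragments used a replicate block within each time point. Intervals are 95% and cover the spread of these fits. Replicate numbers come from the labels. The deviations of same-numbered libraries correlated at 0.178 to 0.916 over the 36 pairs of groups, so the numbers were taken to pair the libraries. The code was tested on simulated data. Alternatives were RLE scaling, library size alone, other filters, other blocks, DESeq2 1.42.0, smaller fits and leaving out each library.

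The groups compared, the gene lists and the genes named were chosen with earlier results of these data known, and list patterns were corrected while gene names were read. The rule for named genes took loci with a name, an adjusted p under 0.05 over time, the same direction in both replicates, at least 10 CPM in the higher group and no overlap, the 10 largest in each direction, then up to 3 called members per list and direction, then genes the study's text names for their spatial expression. It gave 0 rises and 3 falls. After that count was seen it was extended to an unadjusted p under 0.05 with more than 2-fold (126 rises and 491 falls qualify) and to loci called against uncut larvae. Fgf9, Abl, Ets and Dach had no tested locus under that name. Some genes that these rules take are not reported here.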

Additional observations from a re-analysis of the deposited data

Results flagged for a closer look

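The change between 3 dpb and 3 hpb differed between anterior fragments and uncut larvae, by a test of the difference itself in edgeR, at 60 loci: it was more negative at 53 and more positive at 7. Named loci with a more negative change in anterior fragments included Fam46c (-3.30), Solh-2 (-2.79 and -2.95 at its 2 loci), Gnbp1/2/3B (-3.16), Gnbp1/2/3B_1 (-3.10), Fadd (-2.41), Dusp10 (-2.36), Nrl (-2.07), Dsp6 (-1.93), Trim2_1 (-1.88) and Gpm6b (-1.65), all on the log2 scale. Those with a more positive change included Rwdd2b (3.58) and Pla2g4b (2.32). Trim2_1, named after a ubiquitin ligase, had 7.44 and 14.7 CPM in anterior fragments at 3 dpb, against 44.3 and 40.0 CPM at 3 hpb. Gpm6b, a membrane proteolipid of neurons in vertebrates, had 105 and 122 CPM at 3 dpb, against 488 and 322 CPM at 3 hpb. Rwdd2b had 2.95 and 1.72 CPM at 3 dpb, against 0.195 and 0.307 CPM at 3 hpb. Adjusted p-values of these named loci lay between 0.0158 and 0.0442. With 1 replicate block for all times, or with no block, 0 loci passed in either direction. Leaving out 1 of 6 of the 8 libraries also gave 0, leaving out replicate 1 of the uncut larvae at 3 dpb gave 12 more negative and 0 more positive, and leaving out replicate 1 of the uncut larvae at 3 hpb gave 1464 more negative and 707 more positive.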

How the results depend on the processing

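With 2 replicates a group the counts moved with most choices. Loci higher and lower at 3 dpb than at 3 hpb in anterior fragments (1 and 4) numbered 0 and 4 with RLE scaling, with no filter and with a filter at 1 CPM, 415 and 44 with library size alone, 0 and 1 with no replicate block, 439 and 876 by DESeq2 with the replicate block, 0 and 0 in the 6 anterior or the 4 compared libraries alone, 1471 and 1731 at an unadjusted p with more than 2-fold, and 0 and 0 to 3 without single libraries. At that looser threshold they numbered 4826 and 651 with library size alone, 917 and 1044 with no replicate block, and 726 to 1971 and 1000 to 1985 without single libraries. Changes that differed from uncut larvae (7 more positive, 53 more negative) numbered 1 and 1 with library size alone, 0 and 0 with 1 replicate block for all times or none, 311 and 599 by DESeq2, and 0 to 707 and 0 to 1464 without single libraries. Changes that differed from posterior fragments (0 and 0) numbered 6 and 5 by DESeq2. Against uncut larvae at 3 hpb (3962 higher, 4598 lower) there were 1629 and 8559 with library size alone, 736 and 1512 with 1 replicate block, 79 and 531 with none, and 1913 to 5131 and 2423 to 4992 without single libraries. At 3 dpb (102 and 1149) there were 6 and 712 with 1 replicate block, 0 and 488 with none, 227 higher by DESeq2, and 11 to 33 and 689 to 833 without single libraries. Loci higher at both times (63) numbered 3 with 1 replicate block, 0 with none and 133 by DESeq2, and loci lower at both (1064) 649 and 399. The cause of these moves was not tested.

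Of 1436 values for single genes under alternatives, 1122 kept their direction and their side of the threshold, 226 lost it, 69 gained it and 19 reversed. The reversals, of genes not called over time, came with library size alone (FoxO 0.45, Mcm2_1 0.384, foxq2 0.0358, GliA 0.41), with no replicate block (FoxO 0.0216, GliA 0.0562), in the 4 libraries alone (Mcm2_1 0.22, GliA 0.0153), in the 6 anterior libraries (Mcm2_1 0.19) and without single libraries, where Ets1/2 ran from -0.0658 to 0.29, Erg from -0.078 to 0.51, FoxO from -0.43 to 0.29, Mcm2_1 from -0.78 to 1.84, Frizz5/8 from -0.12 to 0.71, foxq2 from -0.84 to 0.0046 and GliA from -0.67 to 0.68. The median SE over all loci was 0.44 for the change over time and 0.30 against uncut larvae at 3 dpb.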

Other observations

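Beyond the lists above, the ubiquitin ligase and conjugation list had 12 higher (5.06%) and 15 lower (6.33%) of 237 loci at the unadjusted threshold at 3 dpb against 3 hpb in anterior fragments, close to the 4.63% and 5.44% of all loci (median -0.08, 0.41 under scaling by library size). It also held 3 of the loci whose change was more negative than in uncut larvae. Of 98 heat shock and chaperone loci, 3 were higher (3.06%) and 7 lower (7.14%) over time (median -0.13, 0.35 under scaling by library size), and 1 was higher and 1 lower than in uncut larvae at 3 dpb. Cytosolic ribosomal protein genes, unlike the ribosome biogenesis genes, had 57 of 99 loci lower in both replicates (median -0.38, 0.10 under scaling by library size), with 1 higher and 1 lower at the unadjusted threshold. Zinc finger genes Z339 and Z193 had higher values at 3 dpb: Z339 had 17.9 and 10.8 CPM, against 3.00 and 3.07 CPM at 3 hpb, and Z193 16.3 and 5.15 CPM, against 4.10 and 1.15 CPM. Neither passed the adjustment by edgeR (adjusted p = 0.18 and 0.132).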
